A study of Mus musculus with 6 samples.

Results

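The genes described here encode the subunits of the proteasome, the protease complex that breaks down ubiquitin-tagged proteins, in hearts of transgenic and control mice. Members were all genes whose symbol is Psma, Psmb, Psmc, Psmd or Psme followed by a number, without the interferon-induced Psmb8, Psmb9 and Psmb10, and each was read from the probe set with the highest mean signal over the 6 arrays. This gave 39 of the 18193 genes with a probe set of their own, and 37 of the 39 were bright enough to be tested among 11254 genes. The rule used symbols and mean signal and no difference between groups. Symbols such as Psmc3ip and Psme3ip1, which go on after the number and name no subunit, were left out.

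Heart RNA of male mice aged 2 months was hybridised to 6 Affymetrix mouse arrays, 2 arrays for each of 3 groups that share a B6 strain background. The first group is labelled RKIP-transgenic and carries RKIP, a protein that inhibits RAF kinase and the kinases of G-protein-coupled receptors (GRKs), behind the alpha-MHC promoter, which is active in heart muscle cells. The second is labelled GRK-Inh-transgenic and makes a peptide that inhibits GRKs in the myocardium; the promoter behind it is not given in the sources used here. The third is the B6 control, with neither transgene. The labels call both transgenes specific to the myocardium while RNA came from heart tissue, and the labels do not state that each array is a different animal, so the p-values rest on a spread between samples that may be technical.

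The proteasome has a barrel, the 20S core particle, whose outer rings of alpha subunits form the gate and whose inner rings of beta subunits hold the proteolytic sites. A 19S regulatory particle sits on the end of the barrel: its base, a ring of ATPases with scaffold and ubiquitin-binding subunits, unfolds the substrate, and its lid removes the ubiquitin chain. Other caps, the PA28 and PA200 activators, can take the place of the regulatory particle. In heart muscle the complex turns over contractile and regulatory proteins, and in mammals the transcription factor NRF1, encoded by Nfe2l1, raises the subunit genes together when proteasome activity is short.

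The deposited signals had a 2% trimmed mean of 300.002 on every array and medians of 50.4 to 55.2. Pebp1, the mouse gene for RKIP, gave signals of 9102 and 9140 in RKIP-transgenic, 9079 and 9296 in GRK-Inh-transgenic and 9292 and 8766 in B6 control hearts, and was not called in any comparison (adjusted p = 0.866, 0.737 and 0.916, limma). Where this probe set lies relative to the transgene is not given, so it does not check the labels. For the beta-actin control, the signal at the 3' end divided by that at the 5' end, a sign of RNA integrity and cRNA synthesis, was 2.92 to 3.03 on the 4 transgenic arrays and 3.25 and 3.11 on the control arrays. The same ratio for Gapdh was 0.955 to 1.02 on the transgenic arrays and 1.08 and 1.03 on the control arrays. The part of this offset in the results was not tested. Heart muscle markers (8 of 8 tested) summed to signals between 197570 and 211275 on every array, and none was at or near 0.

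Proteasome genes were called higher, and none lower, in both transgenic groups. Against B6 control, 8 of 37 rose in RKIP-transgenic hearts (21.6%), where 5.32% of all tested genes were called higher and 5.51% lower. In GRK-Inh-transgenic hearts 6 of 37 rose (16.2%), where 5.86% of all genes were called higher and 7.27% lower. Psmc5, Psmd2, Psmd7, Psmd12 and Psme4 were called in both comparisons, which share the 2 control arrays. Between the transgenic groups 3 of 37 were higher in RKIP-transgenic hearts (8.11%), where 4.47% of all genes were called higher and 4.35% lower. The changes were small: called fold changes lay between 1.15 and 1.35.

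Calls used limma on log2(signal + 50), two-sided, with p-values adjusted by Benjamini-Hochberg over all 11254 genes and a threshold of 0.05. The members' median log2 fold change was 0.10 in RKIP-transgenic and 0.06 in GRK-Inh-transgenic hearts against control, and 0.04 between the transgenic groups; over all tested genes it was -0.02, -0.03 and 0.02. No member was called lower, and at an unadjusted p under 0.05 the numbers lower were 2, 0 and 3, against 13.5%, 16.1% and 10.2% of all genes. Proteasome genes are bright on these arrays, and the median SE of their log2 fold changes was 0.0552 against 0.115 over all genes. A smaller difference therefore passed the test. Among genes kept by a filter at the 75th percentile of signal, 9.16%, 10% and 7.51% were called higher in the 3 comparisons. The members called higher were then 8, 6 and 3 of 36, and Psme1 was called lower in RKIP-transgenic hearts. With the variance fitted without its trend over signal, only Psmd2 in RKIP-transgenic hearts was still called (counts of 1, 0 and 0), and with a gene's probe sets averaged the counts were 3, 3 and 1. The GRK-Inh-transgenic count fell without any 1 of its own or the control arrays, most without its array 1 or control array 2. The RKIP-transgenic count changed less, but its members changed. Without control array 2, Psmc5, Psmd4 and Psmd7 were no longer called there and Psmd11 was. Psmc3 entered without control array 1, and Psmb7 without RKIP-transgenic array 2. The count between the transgenic groups was 0 or 1 without any 1 transgenic array. With the arrays set to one median, 897 genes were called higher and 597 lower in GRK-Inh-transgenic hearts in place of 659 and 818, and 318 and 600 between the transgenic groups in place of 503 and 490; the members called higher were then 7, 7 and 1.

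**Figure D1:**
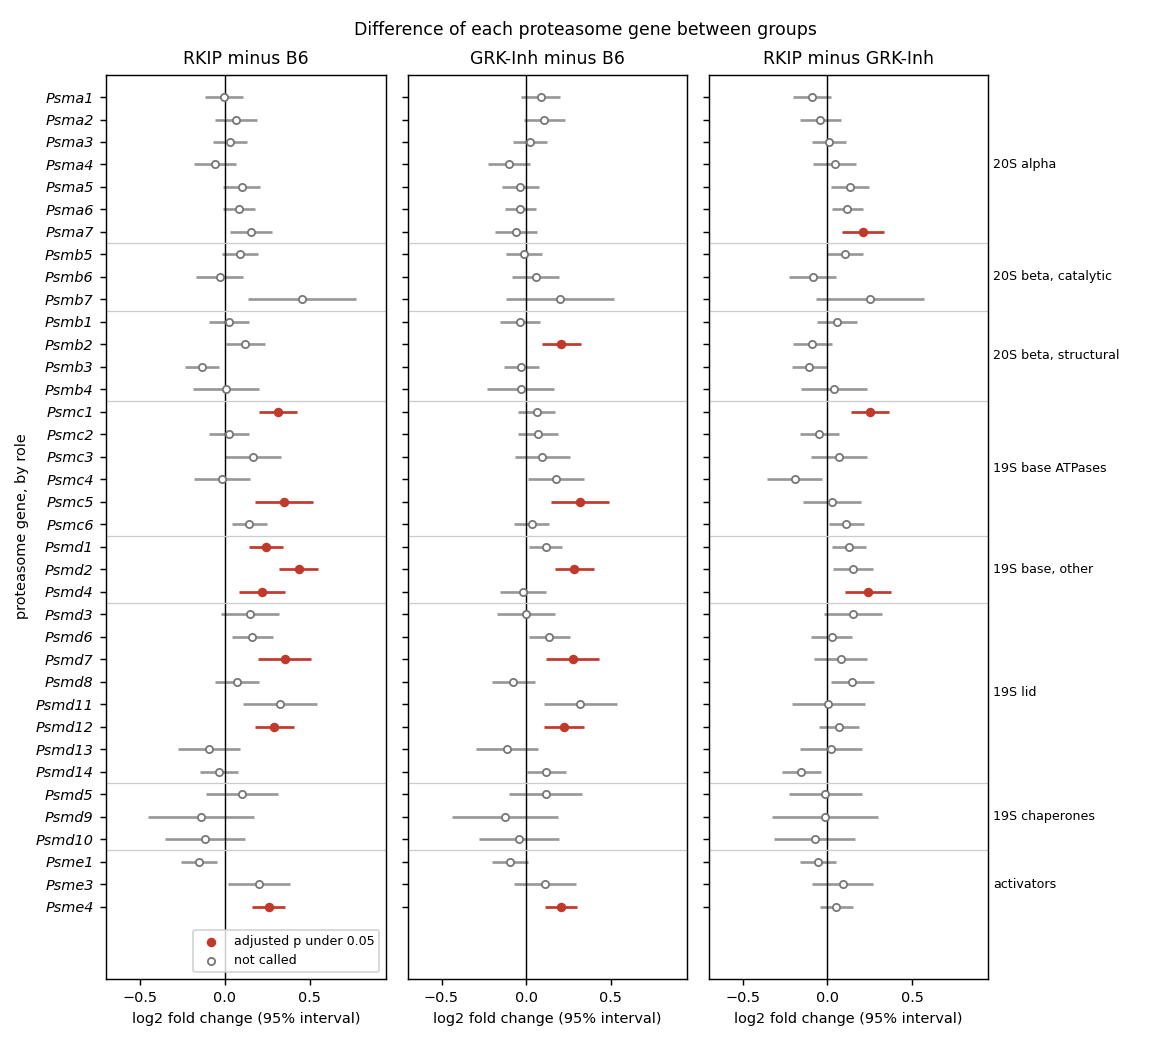
Log2 fold change of each of the 37 tested proteasome genes in the 3 comparisons, on the log2(signal + 50) scale, with 95% intervals from limma. Filled red points are called at an adjusted p under 0.05: 8, 6 and 3 genes, all to the right of 0.

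The base of the regulatory particle held most of the called genes in RKIP-transgenic hearts, where 5 of its 9 subunits rose. Of all tested genes 5.32% were called higher there, and 9.16% of those kept by the filter at the 75th percentile. Psmd2, a scaffold of the base that docks ubiquitin receptors and shuttle factors, had signals of 2341 and 2384 in RKIP-transgenic, 2141 and 2107 in GRK-Inh-transgenic and 1732 and 1737 in B6 control hearts. The 3 groups did not overlap, with RKIP-transgenic arrays highest and control arrays lowest. The log2 fold change against control was 0.43 ± 0.0527 (SE; adjusted p = 0.000478, limma) in RKIP-transgenic and 0.28 ± 0.0527 (adjusted p = 0.00482) in GRK-Inh-transgenic hearts. The transgenic groups differed by 0.15, which was not called (adjusted p = 0.113). Averaged with its dim second probe set, whose signals were 4.91 to 23.6, Psmd2 had values of 0.31 (adjusted p = 0.0573) and 0.11 (adjusted p = 0.476) against control and was not called. Psmd1, the second large scaffold of the base, gave 4199 and 4285 in RKIP-transgenic, 3833 and 3932 in GRK-Inh-transgenic and 3586 and 3579 in control hearts. These groups were again separate and in the same order. Psmd1 rose by 0.24 ± 0.0450 in RKIP-transgenic hearts (adjusted p = 0.00683), and its difference of 0.11 in GRK-Inh-transgenic hearts was not called (adjusted p = 0.123).

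Psmd4, a ubiquitin receptor of the base, stood apart in RKIP-transgenic hearts on both of its tested probe sets. On the brightest its signals were 2165 and 2368 in RKIP-transgenic, 1853 and 1969 in GRK-Inh-transgenic and 1938 and 1937 in control hearts. The last groups overlapped. On the second probe set they did not, at 1471 and 1559 in GRK-Inh-transgenic and 1304 and 1339 in control hearts. RKIP-transgenic arrays lay above both groups there, at 1907 and 1858. By the brightest probe set Psmd4 was higher in RKIP-transgenic hearts by 0.22 ± 0.0620 against control (adjusted p = 0.0469, limma) and by 0.24 ± 0.0620 against GRK-Inh-transgenic hearts (adjusted p = 0.0390). Both values lie close to the threshold. Tested one by one, the brightest probe set was not called (adjusted p = 0.0612 and 0.0527, limma), but the second was. With that setting counted as kept, the calls were lost in 11 and 10 of 18 alternative settings. They were lost without any 1 array other than RKIP-transgenic array 1, with values of 0.16 to 0.22 (adjusted p = 0.0556 to 0.254) and 0.18 to 0.28 (adjusted p = 0.0575 to 0.217).

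Among the 6 ATPases of the base, Psmc1 and Psmc5 changed. Psmc1, an ATPase that helps to open the gate of the core, gave 2775 and 2806 in RKIP-transgenic, 2335 and 2333 in GRK-Inh-transgenic and 2266 and 2205 in control hearts. RKIP-transgenic arrays were far above the rest, and the mean signal was 2791 ± 21.9 (SD, n = 2) there against 2235 ± 43.2 in control hearts. Psmc1 rose by 0.31 ± 0.0505 against control (adjusted p = 0.00297, limma) and was higher by 0.25 ± 0.0505 against GRK-Inh-transgenic hearts (adjusted p = 0.0114), while its 0.06 in GRK-Inh-transgenic hearts was not called (adjusted p = 0.476). The call between the transgenic groups was lost without any 1 transgenic array (0.24 to 0.26, adjusted p = 0.0543 to 0.0694). Averaged with its dim second probe set, at signals of 1.85 to 27.0, Psmc1 had 0.25 against control (adjusted p = 0.149) and 0.07 against GRK-Inh-transgenic hearts (adjusted p = 0.743). Psmc5, another ATPase of the ring, was at 1862 and 1713 in RKIP-transgenic, 1859 and 1654 in GRK-Inh-transgenic and 1469 and 1324 in control hearts. The transgenic groups overlapped each other and lay wholly above the controls. Psmc5 rose by 0.35 ± 0.0776 in RKIP-transgenic (adjusted p = 0.0169) and by 0.32 ± 0.0776 in GRK-Inh-transgenic hearts (adjusted p = 0.0201). The first call was lost without RKIP-transgenic array 1 (0.29, adjusted p = 0.113) or control array 2 (0.27, adjusted p = 0.129). The second was lost without GRK-Inh-transgenic array 1 (0.24, adjusted p = 0.151) or control array 2 (0.25, adjusted p = 0.143).

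The other ATPases did not pass the test in any comparison. In RKIP-transgenic hearts Psmc6 had a difference of 0.14 (adjusted p = 0.0815), Psmc3 one of 0.17 (adjusted p = 0.195), and Psmc2 and Psmc4 differences of 0.02 and -0.02. Psmc4 had 3563 and 3987 in RKIP-transgenic hearts and 4148 and 4492 in GRK-Inh-transgenic hearts, without overlap. That difference of -0.19 was not called (adjusted p = 0.144).

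Of the 8 tested subunits of the lid, Psmd7 and Psmd12 rose in both transgenic groups. The shares called higher over all tested genes were 5.32% in RKIP-transgenic and 5.86% in GRK-Inh-transgenic hearts. Psmd7, the partner of the deubiquitinase subunit Psmd14, had signals of 2360 and 2604 in RKIP-transgenic, 2492 and 2204 in GRK-Inh-transgenic and 1959 and 1901 in control hearts. All 4 transgenic arrays were above both controls, and the transgenic groups overlapped. Psmd7 rose by 0.35 ± 0.0707 in RKIP-transgenic (adjusted p = 0.00988, limma) and by 0.27 ± 0.0707 in GRK-Inh-transgenic hearts (adjusted p = 0.0273). Averaged with its 2 dim probe sets, whose signals were 7.39 to 51.3, Psmd7 had a value of -0.07 in RKIP-transgenic hearts (adjusted p = 0.734) and 0.09 in GRK-Inh-transgenic hearts (adjusted p = 0.632). The RKIP-transgenic call was lost without RKIP-transgenic array 2 (0.28, adjusted p = 0.0715), control array 1 (0.37, adjusted p = 0.0523) or control array 2 (0.33, adjusted p = 0.0751). The GRK-Inh-transgenic call was lost without its array 1 (0.19, adjusted p = 0.199), control array 1 (0.29, adjusted p = 0.0916) or control array 2 (0.25, adjusted p = 0.137).

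Psmd12, a structural subunit of the lid, gave 3594 and 3573 in RKIP-transgenic, 3443 and 3392 in GRK-Inh-transgenic and 3042 and 2799 in control hearts. The 3 groups were separate, and the spread was widest in the controls (mean 2920 ± 172, SD, n = 2). Psmd12 rose by 0.29 ± 0.0528 in RKIP-transgenic (adjusted p = 0.00564, limma) and by 0.22 ± 0.0528 in GRK-Inh-transgenic hearts (adjusted p = 0.0176). The latter call was lost without GRK-Inh-transgenic array 1 (0.21, adjusted p = 0.101) or 2 (0.24, adjusted p = 0.0696) or control array 2 (0.17, adjusted p = 0.107).

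Psmd11, a lid subunit that bridges to the core, had large differences that did not pass. Its signals were 6138 and 5723 in RKIP-transgenic, 6206 and 5623 in GRK-Inh-transgenic and 4144 and 5381 in control hearts. The control arrays disagreed, and both lay below all transgenic arrays. The differences of 0.32 in RKIP-transgenic and 0.32 in GRK-Inh-transgenic hearts had adjusted p = 0.0604 and 0.0561 (limma). Without control array 2, Psmd11 was called in both. Psmd14, the deubiquitinase that removes ubiquitin chains, was at 2854 and 2892 in RKIP-transgenic, 3229 and 3180 in GRK-Inh-transgenic and 3050 and 2844 in control hearts. It was highest in GRK-Inh-transgenic hearts, where no difference was called (0.12 against control, adjusted p = 0.159; RKIP-transgenic against GRK-Inh-transgenic -0.16, adjusted p = 0.0981). Psmd3, Psmd6, Psmd8 and Psmd13 ranged from -0.09 to 0.16 in RKIP-transgenic and from -0.12 to 0.14 in GRK-Inh-transgenic hearts, and were not called.

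The regulatory particle as a whole, base and lid, had 7 of 17 genes called higher in RKIP-transgenic hearts and 4 of 17 in GRK-Inh-transgenic hearts, with medians of 0.17 and 0.11. The 14 tested genes of the 20S core had 0 and 1 called, with medians of 0.05 and -0.02. Over all tested genes 5.32% and 5.86% were called higher, and the counts of the core lie near these shares. Whether the particles differ was not tested.

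**Figure D2:**
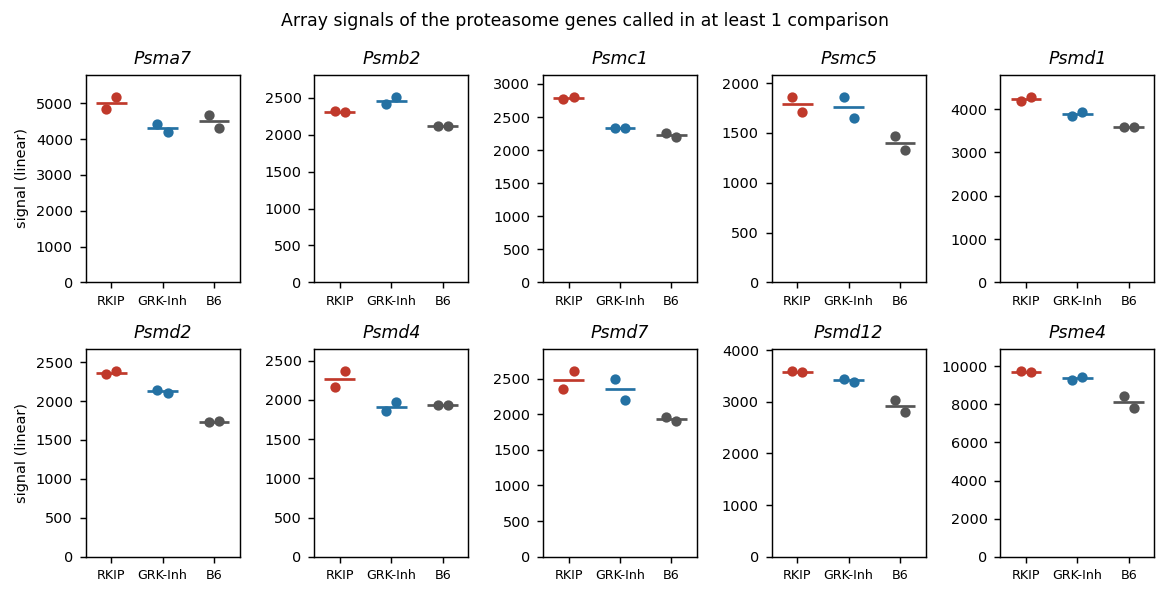
Linear signal of the 10 proteasome genes called in at least 1 comparison, with each array as a point, the group mean as a line and axes that start at 0. For Psmd2, Psmd1 and Psmd12 the RKIP-transgenic arrays are highest, the GRK-Inh-transgenic arrays lie between, and the control arrays are lowest.

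In the 20S core 0 of 14 genes were called in RKIP-transgenic hearts and Psmb2 alone in GRK-Inh-transgenic hearts. Over all tested genes 5.32% and 5.86% were called higher. Psmb2, a beta subunit without a proteolytic site, had signals of 2322 and 2301 in RKIP-transgenic, 2410 and 2511 in GRK-Inh-transgenic and 2122 and 2121 in control hearts. Here the GRK-Inh-transgenic arrays were the highest, and the 3 groups did not overlap. Psmb2 rose by 0.21 ± 0.0522 in GRK-Inh-transgenic hearts (adjusted p = 0.0234, limma), a call lost without any 1 GRK-Inh-transgenic or control array (0.18 to 0.24, adjusted p = 0.0614 to 0.146). In RKIP-transgenic hearts its 0.12 was not called (adjusted p = 0.179).

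Psma7, an alpha subunit of the gated outer ring, differed between the transgenic groups. Its signals were 4837 and 5178 in RKIP-transgenic, 4429 and 4203 in GRK-Inh-transgenic and 4680 and 4314 in control hearts. RKIP-transgenic arrays were above all others, and the other groups overlapped. RKIP-transgenic hearts were higher by 0.21 ± 0.0559 (adjusted p = 0.0421, limma) against GRK-Inh-transgenic hearts, a value near the threshold that was lost when any 1 transgenic array was left out (0.16 to 0.26, adjusted p = 0.0544 to 0.219). Against control it was 0.15 (adjusted p = 0.113).

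The 3 proteolytic subunits were not called in any comparison. Psmb7, which carries the trypsin-like site, had the largest difference of any member, 0.45 in RKIP-transgenic hearts, but its adjusted p was 0.0728 (limma). Its signals were 1290 and 934 in RKIP-transgenic, 1051 and 795 in GRK-Inh-transgenic and 786 and 791 in control hearts. The arrays of each transgenic group were far apart, and the 2 groups overlapped. Psmb5, with the chymotrypsin-like site, differed by 0.09 and -0.02 from control in RKIP-transgenic and GRK-Inh-transgenic hearts (adjusted p = 0.292 and 0.876). Psmb6, with the caspase-like site, differed by -0.03 and 0.06 (adjusted p = 0.809 and 0.612).

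The remaining alpha subunits, Psma1 to Psma6, lay between -0.06 and 0.10 in RKIP-transgenic and between -0.10 and 0.11 in GRK-Inh-transgenic hearts against control. Among the structural beta subunits, Psmb3 ran lower in RKIP-transgenic hearts, with 3742 and 3719 against 4186 and 4022 in controls. The groups did not overlap, but the difference of -0.14 was not called (adjusted p = 0.0958, limma). Psma8, the testis form of an alpha subunit, had signals of 7.67 to 49.5, and Psmb11, the thymus form of a beta subunit, had 1.99 to 42.0. Both had a mean below the level for testing, a signal of about 50.2, and neither was tested.

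Among the activators, Psme4 rose in both transgenic groups. Psme4 encodes PA200, a cap that opens the core without ATP. Its signals were 9747 and 9680 in RKIP-transgenic, 9284 and 9444 in GRK-Inh-transgenic and 8440 and 7798 in control hearts. The 3 groups were separate, in the order RKIP-transgenic, GRK-Inh-transgenic and control. Psme4 rose by 0.26 ± 0.0441 in RKIP-transgenic (adjusted p = 0.00412, limma) and by 0.21 ± 0.0441 in GRK-Inh-transgenic hearts (adjusted p = 0.0107). The latter call was lost without GRK-Inh-transgenic array 1 (0.22, adjusted p = 0.0510) or 2 (0.19, adjusted p = 0.0779) or control array 2 (0.15, adjusted p = 0.0655). Averaged over all its probe sets, Psme4 had 0.26 (adjusted p = 0.0569) and 0.15 (adjusted p = 0.236). Psme1, a subunit of the interferon-induced PA28 cap, ran the other way, at 3328 and 3217 in RKIP-transgenic, 3470 and 3344 in GRK-Inh-transgenic and 3624 and 3661 in control hearts. All transgenic arrays were below both controls, but the differences of -0.15 and -0.10 were not called (adjusted p = 0.0709 and 0.224). Psme3, which forms a nuclear PA28 cap, differed by 0.20 and 0.11 and was not called (adjusted p = 0.159 and 0.423). Psme2, the partner of Psme1, was measured only by a probe set shared with Psme2b, at signals of 1635 to 1949, and was not called (adjusted p = 0.732 and 0.294 over 541 shared probe sets).

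The 3 chaperones that assemble the regulatory particle were not called. Psmd5 differed by 0.10 and 0.11 from control in RKIP-transgenic and GRK-Inh-transgenic hearts, Psmd9 by -0.14 and -0.13, and Psmd10 by -0.12 and -0.04. These were the dimmest tested members, with signals of 162 to 491, and their SEs were 0.0967 to 0.142.

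**Figure D3:**
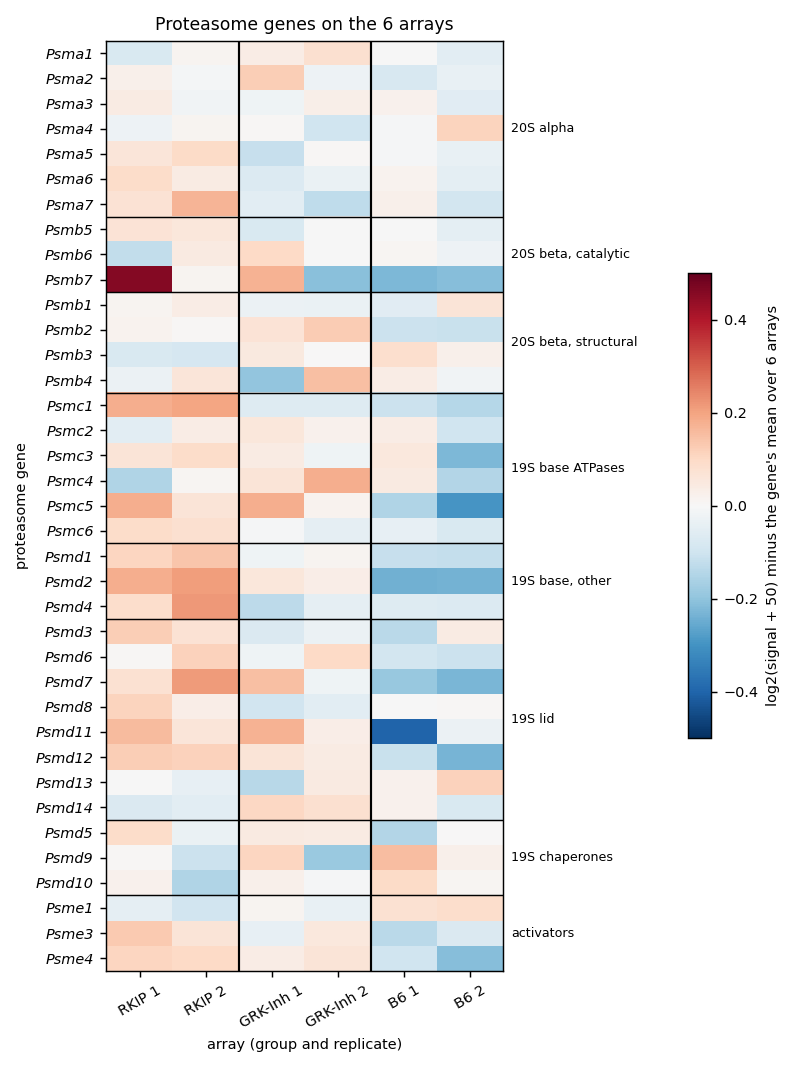
Each array's log2(signal + 50) minus the gene's mean over the 6 arrays, for the 37 tested proteasome genes ordered by role, with red above and blue below the mean. Rows of the 19S base and lid are mostly red on the RKIP arrays and blue on the B6 arrays; Psmb7 on RKIP array 1 and Psmd11 on B6 array 1 stand out.

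Array by array, 27 and 28 of 37 members were above their own mean on the RKIP-transgenic arrays, 21 and 19 on the GRK-Inh-transgenic arrays, and 14 and 10 on the control arrays. The median deviation of the base and lid genes was 0.09 and 0.08 on RKIP-transgenic, 0.04 and 0.02 on GRK-Inh-transgenic and -0.09 and -0.11 on control arrays. That of the core genes was 0.02 and 0.03, -0.01 and -0.003, and -0.0005 and -0.04. For all genes the median deviation was 0.010 and -0.002, -0.013 and -0.015, and 0.018 and 0.016 in the same order. Groups did not overlap upwards for 22 of 37 members in RKIP-transgenic against control hearts (24.2% of all genes) and for 17 in GRK-Inh-transgenic against control hearts (23.8%). They did not overlap downwards for 4 and 2 members (29.2% and 33.1% of all genes). Between the transgenic groups RKIP-transgenic arrays were wholly above for 16 members (29.7% of all genes) and wholly below for 6 (23.2%). Fewer cells of a type and less RNA per cell cannot be told apart in bulk tissue.

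Several genes were read by more than 1 probe set, and these were also tested one by one over 19771 probe sets. Of 63 member probe sets tested, 11 were called higher in RKIP-transgenic and 8 in GRK-Inh-transgenic hearts against control (4.30% and 5.29% of all probe sets), with 0 called lower by limma; 3 were called between the transgenic groups (2.85%). Among the 26 that did not represent a gene, 4, 2 and 2 were called higher. The 3 brightest probe sets of Psme4 were called in both lines: log2 fold changes were 0.26, 0.46 and 0.47 in RKIP-transgenic and 0.21, 0.32 and 0.43 in GRK-Inh-transgenic hearts. Its 2 dimmer tested probe sets were not called. The second probe set of Psmd4 had a difference of 0.49 in RKIP-transgenic hearts (adjusted p = 0.000868, limma) and 0.19 in GRK-Inh-transgenic hearts (adjusted p = 0.0789). In the same test the first had 0.22 (adjusted p = 0.0612) and -0.02.

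The second probe set of Psma7 gave 0.19 in RKIP-transgenic hearts against control (adjusted p = 0.0485, limma) and 0.22 against GRK-Inh-transgenic hearts (adjusted p = 0.0359). The first gave 0.15 and 0.21 and was not called in this test (adjusted p = 0.139 and 0.0569). The 5 tested probe sets of Psmd11 disagreed, from -0.17 to 0.32 in RKIP-transgenic and from -0.27 to 0.32 in GRK-Inh-transgenic hearts, and none was called. Psmd2, Psmc1 and Psmd7 had 1 tested probe set each, because their others were too dim.

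**Figure D4:**
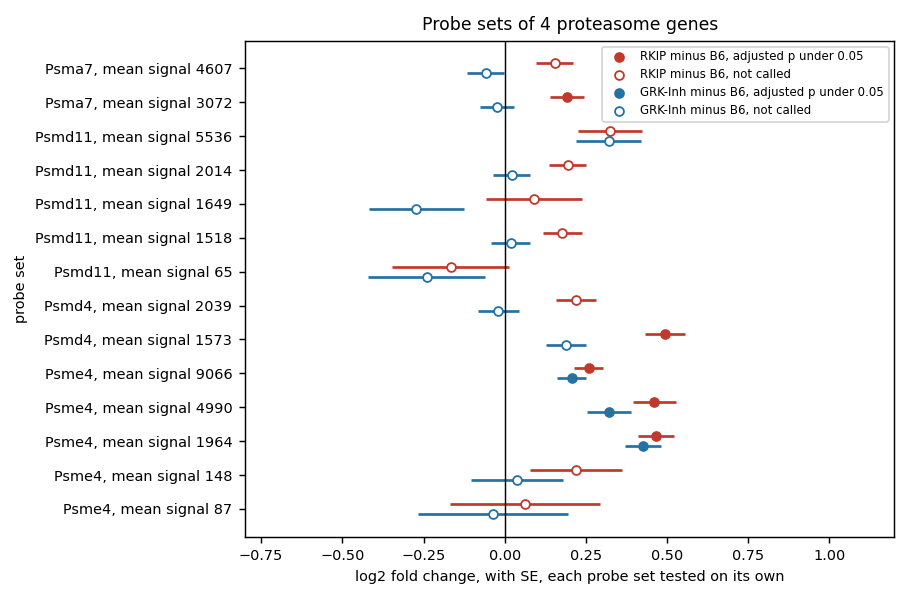
Log2 fold change against B6 control, with SE, of every tested probe set of Psma7, Psmd11, Psmd4 and Psme4, labelled by its mean signal, with filled points called at an adjusted p under 0.05 over all probe sets. The 3 brightest probe sets of Psme4 are filled for both lines, and those of Psmd11 spread over both sides of 0.

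The promoter windows shown are those of the genes called higher in both comparisons, which share the control arrays; RefSeq windows (GRCm38.p6), from 250 bases before to 50 after the gene's start, were held for 4 of the 5 and for 32 of the 39 members. Each is written 5' to 3' along the gene: Psmd2 at chr16:20651402-20651701, Psmc5 at chr11:106255935-106256234, Psmd12 at chr11:107479278-107479577 and Psme4 at chr11:30771525-30771824, all on the plus strand. Capitals mark matches, on either strand, to CCGGAAG, the core bound by GABP and other ETS factors, and to TGANNNNGC, the core of the antioxidant response element that NRF1 binds.
Psmd2: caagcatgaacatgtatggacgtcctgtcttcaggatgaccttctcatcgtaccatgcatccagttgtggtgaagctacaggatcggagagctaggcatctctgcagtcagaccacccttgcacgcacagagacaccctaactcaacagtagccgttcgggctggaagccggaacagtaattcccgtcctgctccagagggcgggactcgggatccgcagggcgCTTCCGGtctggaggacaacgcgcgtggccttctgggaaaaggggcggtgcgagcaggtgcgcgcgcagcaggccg
Psmc5: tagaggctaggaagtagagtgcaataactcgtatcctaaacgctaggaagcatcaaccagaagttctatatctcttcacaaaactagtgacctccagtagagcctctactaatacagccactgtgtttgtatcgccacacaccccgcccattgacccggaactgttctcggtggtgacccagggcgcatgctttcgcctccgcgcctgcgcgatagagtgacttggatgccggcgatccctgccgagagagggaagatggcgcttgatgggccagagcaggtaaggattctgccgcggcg
Psmd12: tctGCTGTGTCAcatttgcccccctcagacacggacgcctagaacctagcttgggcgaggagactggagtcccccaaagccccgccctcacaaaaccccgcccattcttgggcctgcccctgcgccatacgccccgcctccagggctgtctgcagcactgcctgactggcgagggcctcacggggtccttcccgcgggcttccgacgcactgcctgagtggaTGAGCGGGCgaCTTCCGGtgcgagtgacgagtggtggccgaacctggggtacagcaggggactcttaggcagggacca
Psme4: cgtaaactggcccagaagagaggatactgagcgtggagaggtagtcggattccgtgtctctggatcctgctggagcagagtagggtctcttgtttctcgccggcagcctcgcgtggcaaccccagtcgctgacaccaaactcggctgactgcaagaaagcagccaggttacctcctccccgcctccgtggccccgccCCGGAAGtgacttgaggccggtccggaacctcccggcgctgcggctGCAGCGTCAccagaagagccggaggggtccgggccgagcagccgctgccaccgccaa
Capitals that read CCGGAAG or CTTCCGG are the ETS core, and the others are the response element core. The windows of Psmd2, Psmd12 and Psme4 hold an ETS core, those of Psmd12 and Psme4 also a response element core, and that of Psmc5 neither.

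Over the 32 members with a window, 12 (37.5%) held the ETS core, against 8.86% of all 32851 windows. The response element core was in 18 (56.2%) against 41.3%, and CCAAT, the NF-Y box, in 13 (40.6%) against 37.4%. GAANNTTC, a pair of heat shock element units, was in 1 (3.12%), that of Psmb5, against 7.86%. Each motif was searched on both strands and different motifs could overlap. Members were counted as genes, and the background as single windows. Psma6 and Psmc2 have 2 windows each and were counted where either window matched. The median GC content was 58.2% in the members' windows and 52.7% in all windows. Of the 25 members with a window that were called in neither line, 7 held the ETS core and 15 the response element core. The 25 include Psmb11, which was not tested and held the response element core. Of the 4 called in both lines, 3 held the ETS core and 2 the response element core. Of the 3 called only in RKIP-transgenic hearts, these numbers were 2 and 1. A match is a stretch of letters and does not show that a factor binds there.

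Genes that make or steer the proteasome were called in both directions. For these and the lists that follow, 5.32% of all tested genes were called higher and 5.51% lower in RKIP-transgenic hearts against control. In GRK-Inh-transgenic hearts the shares were 5.86% and 7.27%. The interferon-induced subunits Psmb8, Psmb9 and Psmb10, which replace the proteolytic subunits in immune cells, had differences of -0.21, -0.22 and -0.22 in RKIP-transgenic hearts and were not called (adjusted p = 0.187, 0.344 and 0.120, limma). In GRK-Inh-transgenic hearts Psmb10 fell by 0.28 on the log2 scale (adjusted p = 0.0397), from 1033 and 970 in controls to 824 and 802. Pomp, the maturation factor of the core, had differences of 0.10 and 0.10 and was not called (adjusted p = 0.253 and 0.214). Of 7 assembly factors, only Akirin2, which takes proteasomes into the nucleus, was called: signals were 3045 and 2984 in GRK-Inh-transgenic, 2426 and 2396 in RKIP-transgenic and 2455 and 2498 in control hearts. Akirin2 was higher by 0.28 in GRK-Inh-transgenic hearts against control (adjusted p = 0.00380).

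Nfe2l1 itself had signals of 2401 and 2419 in RKIP-transgenic, 2357 and 2358 in GRK-Inh-transgenic and 2173 and 2292 in control hearts. Its differences of 0.11 and 0.08 were not called (adjusted p = 0.233 and 0.376, limma). Of 11 tested genes of NRF1 control, 0 were called in RKIP-transgenic hearts and 4 rose in GRK-Inh-transgenic hearts. These were Syvn1, a ubiquitin ligase of the endoplasmic reticulum (0.62, adjusted p = 0.00178), the DNA-binding partners Mafk (0.45, adjusted p = 0.0204) and Mafg (0.33, adjusted p = 0.0475), and Nfe2l2, the related oxidative stress factor (0.22, adjusted p = 0.0267). Of these, Syvn1 was also called between the transgenic groups, at -0.46 in RKIP-transgenic against GRK-Inh-transgenic hearts (adjusted p = 0.0149).

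Of 11 proteins that bind the proteasome and regulate it, 2 rose in RKIP-transgenic hearts. Uchl5, a deubiquitinase of the regulatory particle, was at 1179 and 1157 in RKIP-transgenic, 1006 and 1048 in GRK-Inh-transgenic and 870 and 913 in control hearts. Its log2 fold change in RKIP-transgenic hearts was 0.37 (adjusted p = 0.00598, limma). Zfand5, which stimulates the complex, rose by 0.25 (adjusted p = 0.00478). In GRK-Inh-transgenic hearts both were above control but not called, at 0.19 (adjusted p = 0.0882) and 0.15 (adjusted p = 0.0502).

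Of 6 tested shuttle factors, which carry tagged proteins to degradation, Sqstm1 rose in both lines. Its signals were 2532 and 2498 in RKIP-transgenic, 2288 and 2408 in GRK-Inh-transgenic and 1467 and 1490 in control hearts. All transgenic arrays were far above the controls, by 0.75 (adjusted p = 1.5e-05, limma) and 0.65 (adjusted p = 2.84e-05). Sqstm1, or p62, also serves as a receptor for autophagy.

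The p97 segregase, which pulls tagged proteins out of complexes, and its cofactors had 3 of 15 genes higher and 1 lower in RKIP-transgenic hearts. The cofactors Ubxn6, Ubxn4 and Faf1 rose by 0.38, 0.37 and 0.27 (adjusted p = 0.0171, 0.00793 and 0.0113, limma). Nsfl1c, which encodes the cofactor p47, fell by 0.51 on the log2 scale (adjusted p = 0.000650). In GRK-Inh-transgenic hearts Nsfl1c alone was called, with a fall of 0.25 (adjusted p = 0.0259).

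Muscle ubiquitin ligases had 3 of 13 genes higher in each line and 0 lower. Trim54, a RING-finger ligase of the sarcomere, had signals of 3190 and 2976 in RKIP-transgenic, 2587 and 2590 in GRK-Inh-transgenic and 1342 and 1483 in control hearts. It rose by 1.10 (adjusted p = 2.19e-06, limma) and by 0.85 (adjusted p = 1.05e-05), and the 3 groups did not overlap. Fbxo32, the muscle-wasting ligase atrogin-1, rose by 0.43 (adjusted p = 0.00130) and 0.28 (adjusted p = 0.0125). Trim63, or MuRF1, rose in RKIP-transgenic hearts (0.40, adjusted p = 0.00680), and Fbxo30 rose in GRK-Inh-transgenic hearts (0.75, adjusted p = 0.000645). Both differed between the transgenic groups, Trim63 by 0.47 (adjusted p = 0.00338) and Fbxo30 by -0.82 (adjusted p = 0.000633).

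Of 24 tested ubiquitin-conjugating enzymes, Ube2b rose in both lines, by 0.18 and 0.17 (adjusted p = 0.0319 and 0.0302, limma), and Ube2e2 fell by 0.43 in GRK-Inh-transgenic hearts (adjusted p = 0.0430). With 1 of 24 higher in each line and 0 and 1 lower, these counts lie near or below the shares over all genes. Of the 6 ubiquitin genes and activating enzymes listed, only Uba6 was tested, and it was not called (-0.17 and -0.04, adjusted p = 0.328 and 0.853). Chaperones of the heat shock response, which refold damaged proteins, had 3 of 14 genes higher and 2 lower in RKIP-transgenic hearts. The lower genes were Hspd1 (-0.24, adjusted p = 0.00360) and Hspe1 (-0.17, adjusted p = 0.0343), which encode mitochondrial chaperonins; the higher ones, Hspa4, Bag3 and Hsp90aa1, encode cytosolic proteins. In GRK-Inh-transgenic hearts 11 of 14 rose, with a median of 0.72 against -0.03 over all genes. Hspa1b, an inducible member of the HSP70 family, reached 3185 and 3188 in GRK-Inh-transgenic hearts, against 414 and 348 in RKIP-transgenic and 322 and 330 in control hearts (3.10 against control, adjusted p = 8.03e-09).

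**Figure D5:**
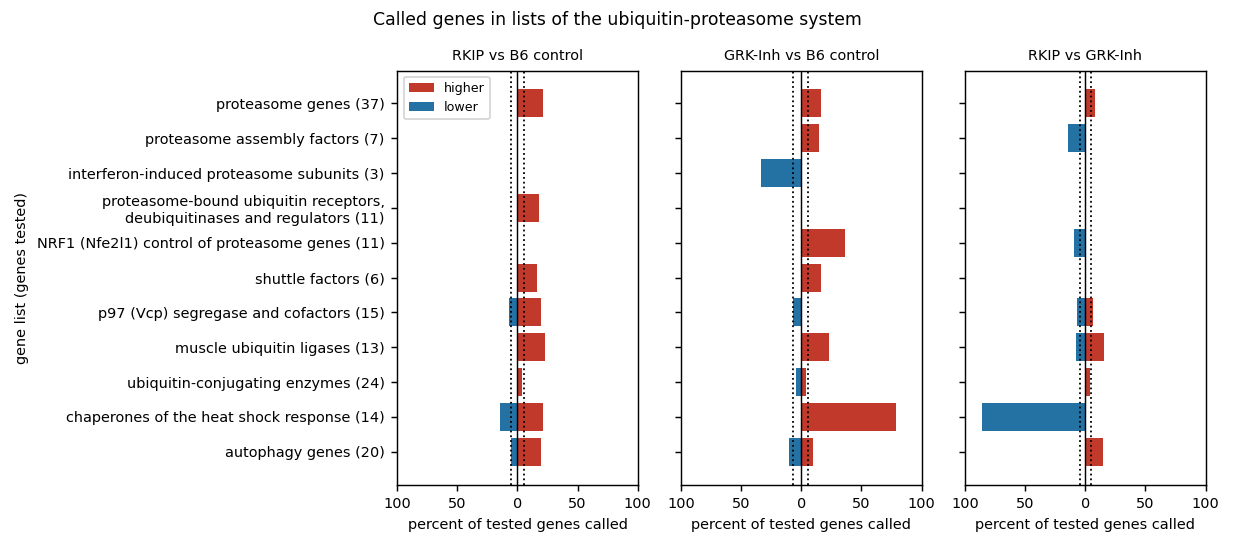
Percent of tested genes called higher (red, to the right) and lower (blue, to the left) in the proteasome genes and in 10 lists of related genes, with the number tested in brackets. Dotted lines give the percent called over all 11254 genes; the heat shock chaperones stand far beyond them in GRK-Inh hearts, with 11 of 14 higher.

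Markers of other heart cells differed between the same groups. Over all tested genes 5.51% and 7.27% were called lower in RKIP-transgenic and GRK-Inh-transgenic hearts against control. Of 9 fibroblast markers, 7 fell in RKIP-transgenic and 8 in GRK-Inh-transgenic hearts, with summed signals of 36233 to 36525 and 33834 to 34252 against 46356 to 48697 in controls. Col3a1, a fibrillar collagen, fell by 1.03 and 1.01 on the log2 scale (adjusted p = 7.53e-07 and 6.33e-07, limma). Smooth muscle and pericyte markers fell for 6 and 4 of 8, with sums of 24705 to 24732 and 25186 to 25478 against 29568 to 30362. Endothelial markers fell for 2 and 2 of 8, with sums of 6011 to 6100 and 6614 to 6716 against 6954 to 7056. Macrophage markers fell for 1 and 3 of 9, with sums of 11975 to 12365 and 10754 to 10785 against 12637 to 13013. The part of these shifts in the proteasome values was not tested.

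Of 8 heart muscle markers, only Actc1 was called in a comparison with control, falling by 0.12 in RKIP-transgenic hearts (adjusted p = 0.0326, limma). Their sums were 202292 to 203537 in RKIP-transgenic, 197570 to 199079 in GRK-Inh-transgenic and 203531 to 211275 in control hearts. Lymphocyte markers summed to 247 to 256, 1194 to 1276 and 353 in the same order, with Ighm higher in GRK-Inh-transgenic hearts (2.01, adjusted p = 2e-06). Fat cell markers summed to 1182 to 1239, 3615 to 4229 and 3660 to 3832, with Car3 lower in RKIP-transgenic hearts (-1.62, adjusted p = 3.75e-07). Of 6 skeletal muscle markers, Acta1 rose in both lines (1.28 and 0.56, adjusted p = 4.97e-07 and 0.000113) and Ckm fell in GRK-Inh-transgenic hearts by 0.13 (adjusted p = 0.0220). Myh4, Tnnt3 and Actn3 were too dim to be tested. Red blood cell markers were near background, with sums of at most 95.9, and none was tested. The part of these differences in the proteasome values was likewise not tested.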

How the data were processed

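RNA of 6 mouse heart samples was measured on Affymetrix arrays, 2 arrays in each of 3 groups taken from the sample titles. The authors deposited 1 intensity per probe set, a linear signal computed with GCOS per the submitters' processing notes, version not given; a 2% trimmed mean of 300.002 on every array was checked on the values. Of 45101 probe sets, 64 controls were set aside, 34945 had a single symbol, 932 several and 9160 none, in an annotation table of the platform; 34741 single-symbol probe sets matched a RefSeq gene.

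Signals were transformed as log2(signal + 50) without further normalization. The probe set of highest mean represented a gene, and the 11254 of 18193 genes with a mean of at least 6.65 (log2), the median over probe sets, entered limma 3.58.1 under R 4.3.3: a single model over 6 arrays, variance moderated with a trend (3 residual and 7.60 prior degrees of freedom), Benjamini-Hochberg adjustment, two-sided, threshold 0.05. Errors are SEs of the model, or SDs over 2 arrays. Precision is limited by the number of arrays, which give no counts. The procedure was tested on simulated data. The members, the 11 lists of related genes and the 9 marker lists were chosen with earlier results of these data known. Every member could be named; of each list, up to 4 called genes of largest change per comparison (2 for markers) or, with none called, 2 of highest signal; and always Pebp1, Psmb8, Psmb9, Psmb10, Pomp and Nfe2l1.

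The settings varied were the normalization (quantile, or arrays set to one median), the offset (16 and 200), the filter (none, or the 75th percentile), probe sets tested one by one or averaged, a variance without trend or robust, the arrays of the compared groups alone, a block for the replicate number, thresholds of 0.01 and 0.10, each array left out, and, chosen after seeing the data, members read without probe sets of x or s suffix. Python 3.11.15 with matplotlib 3.10.9 drew the figures.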

Additional observations from a re-analysis of the deposited data

How the results depend on the processing

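Counts below are proteasome genes called higher in RKIP-transgenic hearts, in GRK-Inh-transgenic hearts (both against control) and between the transgenic groups, which were 8, 6 and 3. With the variance fitted without trend they were 1, 0 and 0 (297, 731 and 255 genes called in all), and with probe sets averaged 3, 3 and 1 (756 and 618 genes in all in the RKIP-transgenic comparisons; Psmd7 in RKIP-transgenic hearts turned to -0.0703), where dim probe sets enter the mean. At a threshold of 0.01, 6, 1 and 0 were called (519, 769 and 416 genes in all). At 0.10, 2 members were lower in RKIP-transgenic hearts (Psmb3 and Psme1) and 1 between the transgenic groups (Psmd14), with 2243 and 1508 genes called in all in the last comparisons. Shifting the arrays to one median gave 1 for the third count, and medians of 0.106 in GRK-Inh-transgenic hearts and 0.00249 between the transgenic groups; over all genes called between the transgenic groups it moved the split from 503 higher and 490 lower to 318 and 600, and in GRK-Inh-transgenic hearts from 659 and 818 to 897 and 597. Without a filter the counts were 7, 4 and 1 (840, 1111 and 617 genes in all). Psmd4 was then lost in RKIP-transgenic hearts (adjusted p = 0.0817, limma), and Psmc5 and Psmd7 in GRK-Inh-transgenic hearts (adjusted p = 0.0506 and 0.0653). With the filter at the 75th percentile 1 member, Psme1, was lower in RKIP-transgenic hearts. Tested one by one, member probe sets had a median of 0.0320 in GRK-Inh-transgenic hearts. The cause was not tested, except where averaging or the number of genes tested sets it. Without any 1 array the counts were 6 to 8, 1 to 6 and 0 to 2, the members lower 0, the medians 0.0802 to 0.110, 0.0377 to 0.0735 and 0.0423 to 0.0666, and the genes in all 621 to 1126, 896 to 1483 and 465 to 874; where an array is left out, the lone array is assumed to vary like the other groups. With the replicate number as a block the counts were 9, 6 and 2 (1150, 1434 and 905 genes in all). Correlations of replicate differences between groups were 0.03, -0.03 and -0.03, so no large effect shared by arrays of one replicate number was seen. The labels do not say what the number stands for, and these values cannot show whether samples were paired. Leaving out probe sets of x or s suffix gave 10, 6 and 3. With 2 arrays a group, differences well above the members' usual SE of 0.0552 could go uncalled. Examples were Psmd2 between the transgenic groups (0.15, SE 0.0527) and Psme1 in RKIP-transgenic hearts (-0.15, SE 0.0480). A member that was not called is therefore not shown to be unchanged, and dim members were resolved less well still.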

Other observations

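Autophagy is the other main route of protein breakdown. Of 20 tested autophagy genes, 4 rose and 1 fell in RKIP-transgenic hearts, and 2 rose and 2 fell in GRK-Inh-transgenic hearts, both against the shared controls (limma). Over all tested genes 5.32% rose and 5.51% fell in the first comparison and 5.86% and 7.27% in the second. Bnip3, a receptor for the removal of mitochondria, had signals of 10109 and 10448 in RKIP-transgenic, 8315 and 7992 in GRK-Inh-transgenic and 6536 and 6512 in control hearts. The 3 groups did not overlap, and Bnip3 rose by 0.65 (adjusted p = 3.75e-06) and 0.32 (adjusted p = 0.000460). Gabarapl1, a protein of the autophagosome membrane, rose by 0.54 (adjusted p = 0.00479) and 0.72 (adjusted p = 0.000592). Between the transgenic groups 3 of 20 were higher in RKIP-transgenic hearts (4.47% of all genes), Bnip3 by 0.33 (adjusted p = 0.000597), the lysosomal protease Ctsl by 0.27 (adjusted p = 0.00460) and Gabarap by 0.21 (adjusted p = 0.0285).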
